A study of Rattus norvegicus with 24 samples.

Results

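The miRs of the imprinted Dlk1-Dio3 region were followed in INS1 cells, an insulin-secreting rat insulinoma line used in place of primary β-cells. Members were chosen by name alone: 82 mature miRs of 44 hairpins known from this locus, of the 758 rat miRs on the array (10.8%). Each of 8 groups had 3 one-colour miR arrays. Ctrl cells received neither agent, Cyt cells received 150 pg/ml IL-1β with 0.1 ng/ml IFN-γ, Giv_Ctrl cells received 125 nM Givinostat, an inhibitor of lysine deacetylases, and Giv_Cyt cells received Givinostat 1 h before the cytokines. Every group was cultured for 48 h before treatment, and RNA was taken at 6 h or at 24 h, which the prefixes 6h_ and 24h_ mark. GEO's design text calls the 3 arrays of a group technical replicates while the study calls them replicates, so p-values may measure only technical spread. All values are from 1 cell line.

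On the maternal chromosome the Dlk1-Dio3 region transcribes long non-coding RNAs (Meg3, the antisense of Rtl1, Rian and Mirg) whose introns and exons hold one of the largest clusters of mammalian miRs, while the paternal chromosome expresses the protein-coding genes Dlk1, Rtl1 and Dio3. The miRs of the cluster are best known from brain, pituitary, embryo and placenta, and those of the Mirg end, are induced by neuronal activity. The antisense-Rtl1 miRs pair perfectly with Rtl1 mRNA and can direct its cleavage.

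The probes of 71 members mapped to chromosome 6 of rn4, between chr6:134141381-134425147, a span of 283.8 kb. The other 11 members had no position on the array. Mature sequences of 80 members were taken from RefSeq (GRCr8); miR-127-5p and miR-136-5p were not matched. The sequences below are those of the 12 members that were measurable in INS1 cells, defined further on, and of miR-370-3p, which was below background but passed the test. They run 5′ to 3′ with the seed, bases 2 to 8, in capitals, because the seed sets which mRNAs a miR can pair with.
miR-494-3p: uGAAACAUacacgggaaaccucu
miR-485-3p: cAUACACGgcucuccucucuuc
miR-667-3p: uGACACCUgccacccagcccaa
miR-539-5p: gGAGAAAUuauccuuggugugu
miR-299a-5p: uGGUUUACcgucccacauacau
miR-299b-5p: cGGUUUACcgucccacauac
miR-134-3p: cUGUGGGCcaccuagucaccaa
miR-329-3p: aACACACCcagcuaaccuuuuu
miR-493-3p: uGAAGGUCuacugugugccag
miR-758-3p: uUUGUGACcugguccacuaacc
miR-758-5p: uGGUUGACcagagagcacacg
miR-487b-5p: aGUGGUUAucccuguccucuucg
miR-370-3p: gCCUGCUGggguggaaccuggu

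Among these sequences only miR-299a-5p and miR-299b-5p share a seed. Their probes lie on opposite strands at chr6:134389831-134389849 and chr6:134389830-134389844, and the mature miRs share a stretch of 19 bases, so their signals cannot be told apart. The seed of miR-329-3p is shared by 1 miR outside the locus, miR-362-3p. Over all 80 sequences 5 seeds occurred more than once, the most often in miR-410-5p, miR-494-5p and miR-496-5p.

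The arrays were of unequal brightness. Measured as the 75th percentile of an array's processed, background-subtracted intensities, brightness lay between 596 and 1003 on the 24h_Cyt arrays, between 487 and 571 in 24h_Giv_Cyt, and between 271 and 347 in 24h_Ctrl. The 24 arrays were on 4 slides, and no 24h_Cyt array shared a slide with a 24h_Ctrl array. The libraries of 6h_Giv_Ctrl replicate 1 and 6h_Giv_Cyt replicate 3 stood apart from their groups, with a lowest correlation within the group of 0.957 and 0.970. The β-cell markers miR-375-3p and miR-7a-5p exceeded background on each of 24 arrays. Of the neuronal markers miR-124-3p was so on 21 arrays and miR-9a-5p on 1. Of the markers of other cell types, miR-206-3p was above background on 24 arrays, miR-1-3p on 3 and miR-126a-3p on 2, while miR-133a-3p, miR-122-5p, miR-142-3p, miR-223-3p, miR-451-5p, miR-143-3p and miR-145-5p were so on 0.

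Most of the locus was not measurable. Each miR had 16 spots, and the scanner software marks a spot that is well above background. With 8 or more marked spots a miR counted as above background on that array, and with this on all 3 arrays as detected in the group. By this rule 65 of the 82 members (79.3%) were above background on no array, against 534 of all 758 miRs (70.4%), and 57 members had no marked spot on any array. In at least 1 group 12 members (14.6%) were detected, against 156 of the 676 other miRs (23.1%). For a member below background the arrays give no level, and too little RNA cannot be told from none.

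Of the 14 guide arms most often described for the locus, 12 were above background on no array, with at most 1 marked spot and log2 signals from 5.31 to 5.84. They comprised miR-127-3p, miR-379-5p, miR-376a-3p, miR-369-3p, miR-411-5p, miR-541-5p, miR-370-3p, miR-134-5p, miR-485-5p, miR-495, miR-381-3p and miR-410-3p. The antisense-Rtl1 miR miR-434-3p was above background on 2 arrays and miR-494-3p on all 24.

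Most detected members were from Mirg, which also holds most of the members, and differences between host transcripts were not tested. Of the 61 Mirg members 11 were detected in a group, of the 9 from Meg3 and the stretch before antisense Rtl1 only miR-493-3p, and of the 9 antisense-Rtl1 and 3 Rian members 0. Of 44 hairpins, 33 had no detected arm, 10 had 1 and only miR-758 had both. Of the guide arms listed above, miR-134-5p and miR-485-5p were undetected while the opposite arm was detected. miR-134-3p was above background on 20 arrays and miR-134-5p on 0, and miR-485-3p on 24 and miR-485-5p on 0. The plot of detection along the cluster gives the number of arrays for each mapped member.

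**Figure D1:**
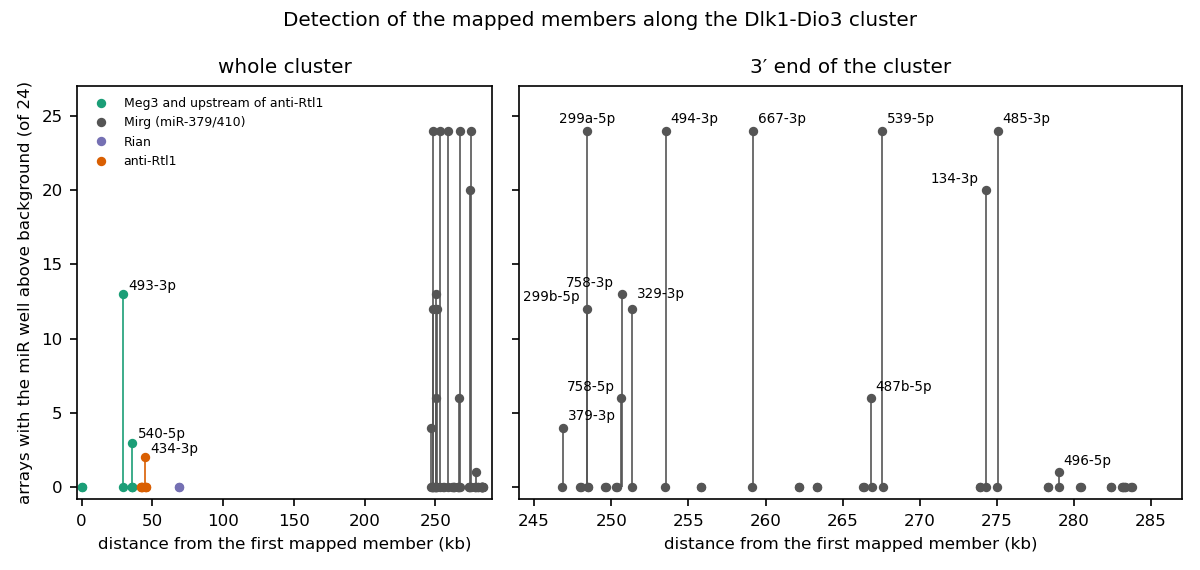
Number of the 24 arrays on which each of the 71 mapped members was well above background (y axis) against distance in kb from the first mapped member (x axis), for the whole cluster and enlarged for its 3′ end; colours mark the host transcript. miR-299a-5p, miR-494-3p, miR-667-3p, miR-539-5p and miR-485-3p reached 24 arrays, all in the Mirg stretch.

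The base composition of the probes was not used in the choice of members. The median share of G in the longest probe was 38.4% for the 12 detected members (from 10% to 57.1%), 25.0% for the 70 others and 22.7% over all 758 miRs. On the probe strand the letters GG, searched on that strand alone, occurred in the longest probe of 12 of the 12 detected members, of 47 of the 70 others (67.1%) and of 55.8% of all 758 miRs. The shorter probe of miR-758-5p, on 8 of its 16 spots, had no GG. Probes held more G than C for 10 of the 12, 25 of the 70 and 38.5% of all 758 miRs. Outside the locus this held for 72 of the 156 detected miRs and 185 of the 520 not detected. Among the miRs outside the locus GG occurred in 54.5% of the 156 detected and 53.7% of the 520 not detected. This comparison was chosen after the values were seen, is a description without a test, and its part in the detection of the members was not tested.

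The arrays of the cytokine groups at 24 h had more members above background. On the 24h_Cyt arrays 13 to 16 members were well above background, against 6 to 10 in 24h_Ctrl and 6 to 11 in 6h_Cyt. In 24h_Giv_Cyt there were 9 to 16, against 5 to 8 in 24h_Giv_Ctrl. In each of these 3 comparisons the arrays did not overlap, and the two-sided exact permutation p was 0.1, the smallest that 3 against 3 arrays allow, or 0.4 after adjustment over 12 comparisons. These arrays were also brighter than those they were compared with, and over all 758 miRs the number above background was also higher there. It was 176 to 211 in 24h_Cyt against 134 to 150 in 24h_Ctrl and 134 to 157 in 6h_Cyt. In 24h_Giv_Cyt it was 145 to 197, against 135 to 142 in 24h_Giv_Ctrl. Within the members, miR-487b-5p and miR-758-5p were above background on 3 arrays of 24h_Cyt and 0 of 24h_Ctrl, yet their normalized signals overlapped. For miR-487b-5p the log2 signals were 5.91, 5.95 and 6.02 in 24h_Cyt and 5.95, 5.94 and 5.93 in 24h_Ctrl. For miR-758-5p they were 5.94, 6.01 and 5.95, and 5.90, 5.96 and 5.87. The part of array brightness in the number of members above background was not tested.

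The 5 members above background on all 24 arrays were miR-485-3p, miR-494-3p, miR-667-3p, miR-539-5p and miR-299a-5p. On the scale of log2 normalized signal, on which different probes cannot be ranked against each other, miR-485-3p ranged from 7.18 to 8.97 over the 24 arrays, miR-494-3p from 6.89 to 7.71, miR-667-3p from 6.62 to 7.76, miR-539-5p from 6.24 to 6.84 and miR-299a-5p from 6.26 to 6.74. Of the other detected members, miR-134-3p ranged from 5.97 to 6.55 and miR-487b-5p from 5.75 to 6.15.

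**Figure D2:**
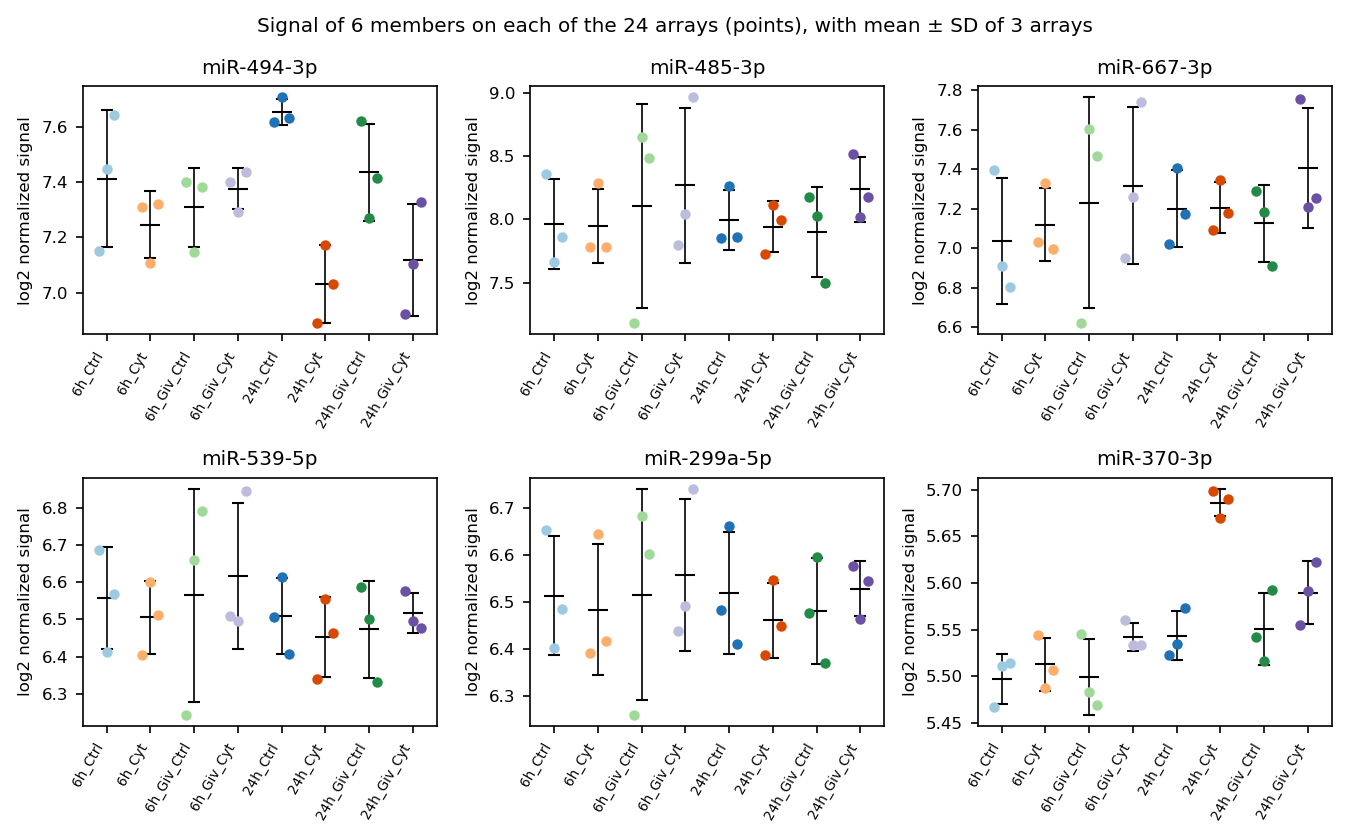
Log2 normalized signal (y axis) of 6 members in the 8 groups (x axis); points are single arrays and bars the mean ± SD of 3. miR-494-3p was lowest in 24h_Cyt, miR-370-3p highest there, and miR-485-3p and miR-667-3p spread widely within the 6h_Giv_Ctrl and 6h_Giv_Cyt groups.

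The comparison of 24h_Cyt with 24h_Ctrl had the most called miRs of the 12. A call needed a log2FC beyond 0.1375 in either direction with a Benjamini-Hochberg p, adjusted over all 758 miRs, under 0.05 in limma. Of the 82 members 2 passed, 1 in each direction, where 3.96% of all miRs did, so the members' share was not above that of all miRs. Neither call held with the slide as a fixed block, without slide 1 or with array brightness as a covariate, and miR-370-3p was below background on all 24 arrays. Both calls held with the slide as a random block. miR-494-3p fell and the signal of miR-370-3p rose. The median log2FC was -0.02 over the members and -0.01 over all miRs. The 3 arrays of each group did not overlap for 22 members (26.8%), against 36.8% of all miRs.

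The log2 signals of miR-494-3p were 7.62, 7.71 and 7.63 in 24h_Ctrl and 6.89, 7.17 and 7.03 in 24h_Cyt. All 24h_Cyt arrays were below all 24h_Ctrl arrays. The mean was 7.65 ± 0.05 (SD, n = 3) in 24h_Ctrl and 7.03 ± 0.14 in 24h_Cyt, a log2FC of -0.62 (SE 0.12, adjusted p = 0.00510, limma). The call held without any single array, with log2FC between -0.69 and -0.55.

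With Givinostat the same direction was seen without a call. miR-494-3p measured 7.62, 7.27 and 7.42 in 24h_Giv_Ctrl and 6.92, 7.10 and 7.33 in 24h_Giv_Cyt. The groups overlapped, and the log2FC of -0.32 (SE 0.12) had an adjusted p of 0.304. Within slides it was -0.02 on slide 3 and -0.61 on slide 4. The term for the difference between both cytokine effects was 0.30 (SE 0.17, adjusted p = 0.857). At 6 h miR-494-3p measured 7.15, 7.45 and 7.64 in 6h_Ctrl and 7.31, 7.11 and 7.32 in 6h_Cyt, which overlapped with a log2FC of -0.17 (adjusted p = 0.999). The term for the cytokine effect at 24 h minus at 6 h was -0.45 (SE 0.17, adjusted p = 0.396).

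miR-494-3p was lower relative to the other miRs, while its own intensity was not lower. Before normalization its log2 signal was 7.36, 7.34 and 7.43 in 24h_Ctrl and 7.49, 7.75 and 7.31 in 24h_Cyt, a difference of 0.14 (adjusted p = 0.305). The background-subtracted intensity was 172, 171 and 189 in 24h_Ctrl and 204, 259 and 162 in 24h_Cyt. Both groups overlapped on either scale, while before normalization the median difference was 0.70 over the 168 detected miRs and 0.53 over the 12 detected members. Detection in any 1 group sufficed for both sets, so the brighter 24h_Cyt arrays had a part in choosing them. Of the members, miR-299b-5p, miR-329-3p, miR-487b-5p, miR-493-3p, miR-758-3p and miR-758-5p were detected in no group but 24h_Cyt or 24h_Giv_Cyt. The medians are thus a description and no test. With array brightness as a covariate the log2FC was -0.33 (adjusted p = 0.404), with the slide fitted as a fixed block -0.57 (adjusted p = 0.587) and without slide 1 -0.62 (adjusted p = 0.189). The study's own form of the test, which pools the correlation between spots, gave an adjusted p of 0.175. It counts the spots of an array almost as separate samples. Over the alternatives the adjusted p ran from 0.00188 to 0.587.

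**Figure D3:**
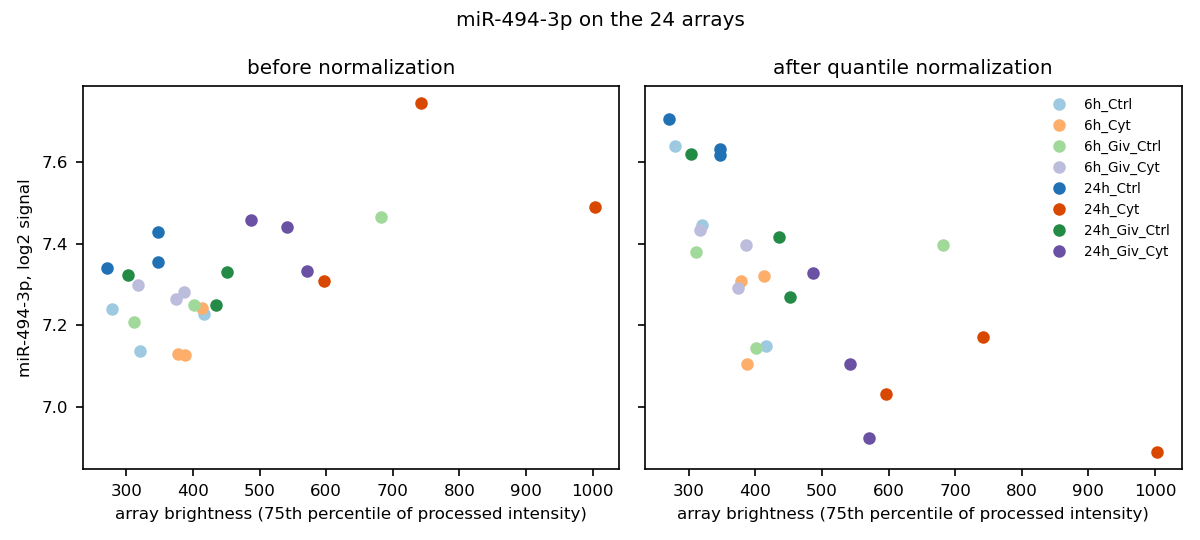
Log2 signal of miR-494-3p (y axis) against array brightness, the 75th percentile of processed intensity (x axis), before and after quantile normalization; each point is 1 of 24 arrays and colours mark the groups. The 24h_Cyt arrays are at 596 to 1003 on the x axis and overlap 24h_Ctrl in signal before normalization but not after it.

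The 16 spots of miR-494-3p carried 2 probes of 8 spots each, which differ by 1 base at the 3′ end, shown as a capital.
miR-494-3p probe of 14 bases: agaggtttcccgtg
miR-494-3p probe of 15 bases: agaggtttcccgtgT
The shorter probe had a mean log2 signal of 6.44 in 24h_Ctrl and 6.04 in 24h_Cyt, a difference of -0.40. The longer one had 8.86 and 8.02, a difference of -0.84. Both probes were lower in 24h_Cyt, and neither the single probes nor the difference between them was tested.

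miR-370-3p, encoded within Rian at chr6:134210249-134210262, was above background on 0 of 24 arrays, so its values describe measured signal and give no fold. Its log2 signals were 5.70, 5.67 and 5.69 in 24h_Cyt, 5.52, 5.54 and 5.57 in 24h_Ctrl and 5.54, 5.49 and 5.51 in 6h_Cyt. The 24h_Cyt arrays were above the arrays of both other groups. The difference was 0.14 (SE 0.02, adjusted p = 0.00175, limma) against 24h_Ctrl and 0.17 (SE 0.02, adjusted p = 0.000212) against 6h_Cyt. In 24h_Giv_Cyt the signals were 5.56, 5.59 and 5.62, which overlapped with 5.54, 5.52 and 5.59 in 24h_Giv_Ctrl. The background-subtracted intensity of miR-370-3p was 11.7, 9.15 and 8.59 in 24h_Cyt and 4.391, 4.004 and 4.575 in 24h_Giv_Cyt, and between -1.83 and 1.32 on the other 18 arrays. Both groups were among the brighter ones, and the part of brightness in the signal of miR-370-3p was not tested beyond the covariate given next.

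The call of miR-370-3p against 24h_Ctrl was close to the fold threshold. Without 24h_Ctrl replicate 1 the difference was 0.132 and without 24h_Cyt replicate 1 it was 0.137, both under it. It was also lost with normexp background correction (0.10), with the slide as a fixed block (adjusted p = 0.201), without slide 1 (adjusted p = 0.0535) and with array brightness as a covariate (adjusted p = 0.207). Against 6h_Cyt it was 0.19 within slide 2, from 1 array against 2. The terms were 0.13 (SE 0.03, adjusted p = 0.163) for 24 h minus 6 h and -0.10 (SE 0.03, adjusted p = 0.775) for with minus without Givinostat at 24 h.

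Of the 17 members with an unadjusted p below 0.05 in 24h_Cyt vs 24h_Ctrl (20.7%, against 23.7% of all miRs), 16 were above background on no array of either group. miR-494-3p was the exception. Besides the called pair, miR-154-5p (-0.09, adjusted p = 0.0172), miR-495 (-0.08, adjusted p = 0.0383) and miR-323-5p (-0.06, adjusted p = 0.0497) had an adjusted p below 0.05 with a difference under the threshold. Of the detected members other than miR-494-3p, 8 had a log2FC between 0.00 and 0.06, and miR-485-3p, miR-539-5p and miR-299a-5p had -0.05, -0.06 and -0.06, with no adjusted p below 0.05.

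In 24h_Cyt vs 6h_Cyt 1 member was called, miR-370-3p, where 0.792% of all miRs were. The arrays did not overlap for 15 members (18.3%, against 22% of all miRs), and 11 members had an unadjusted p below 0.05 (13.7% of all miRs). The largest difference was that of miR-494-3p, -0.22 (SE 0.12, adjusted p = 0.479), from the values given above.

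The next comparisons ask how Givinostat altered the cytokine effect, and their counts depended on the test. In 24h_Giv_Cyt vs 24h_Cyt 0 of 82 members were called by limma (0.132% of all miRs), with 6 at an unadjusted p below 0.05 (5.01%) and 2 called by the pooled correlation test. For the pooled test no share of all miRs is given, so its counts here cannot be read as a result about the locus. The arrays did not overlap for 11 members (13.4%, against 16.8%). In 24h_Giv_Cyt vs 24h_Giv_Ctrl the counts were 0 (0.528% of all miRs), 15 (12.3%) and 6, and the arrays did not overlap for 19 members (23.2%, against 23.6%). The lowest adjusted p there was 0.0240 for miR-369-5p, which was below background and differed by -0.09. The term for the cytokine effect with minus without Givinostat called 0 members at 24 h (0% of all miRs, 3 at an unadjusted p below 0.05, against 5.15%) and 0 at 6 h (0%, 1 at such a p, against 1.58%), and the term for 24 h minus 6 h called 0 (0.528%, 5 at such a p, against 9.5%).

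miR-485-3p and miR-667-3p had the highest positive log2FC in 24h_Giv_Cyt vs 24h_Giv_Ctrl, where limma on array means did not call them and the pooled correlation test did. miR-485-3p measured 8.52, 8.02 and 8.18 in 24h_Giv_Cyt, 8.18, 8.03 and 7.50 in 24h_Giv_Ctrl and 7.72, 8.11 and 7.99 in 24h_Cyt. The groups overlapped. The log2FC was 0.34 (SE 0.34, adjusted p = 0.645) against 24h_Giv_Ctrl and 0.29 (SE 0.34, adjusted p = 0.961) against 24h_Cyt. miR-667-3p measured 7.76, 7.21 and 7.25 in 24h_Giv_Cyt and 7.29, 7.18 and 6.91 in 24h_Giv_Ctrl. These also overlapped, with a log2FC of 0.28 (SE 0.24, adjusted p = 0.617). With the pooled correlation test the adjusted p against 24h_Giv_Ctrl was 0.00351 for miR-485-3p and 0.000337 for miR-667-3p, and these were also the 2 members it called in 24h_Giv_Cyt vs 24h_Cyt.

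At 6 h limma called 0 members in each comparison, and percentages here are those of all miRs. No such share is given for the pooled correlation test. For 6h_Cyt vs 6h_Ctrl 0 were called (0%), 1 had an unadjusted p below 0.05 (3.96%), 3 did not overlap (5.67%), and the pooled correlation test called 0. For 6h_Giv_Cyt vs 6h_Cyt these counts were 0 (0%), 1 (3.17%), 9 (8.31%) and 2. For 6h_Giv_Cyt vs 6h_Giv_Ctrl they were 0 (0%), 3 (3.56%), 5 (5.01%) and 0. For 6h_Giv_Ctrl vs 6h_Ctrl they were 0 (0%), 1 (4.49%), 2 (4.35%) and 0. The largest difference was in miR-485-3p, 0.32 (SE 0.34, adjusted p = 0.924) in 6h_Giv_Cyt vs 6h_Cyt. It rested on 1 array: the log2 signals were 7.80, 8.04 and 8.97 in 6h_Giv_Cyt and 7.78, 8.29 and 7.78 in 6h_Cyt, and without 6h_Giv_Cyt replicate 3 the difference was -0.03.

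The remaining comparisons gave 0 calls by either test. For 24h_Giv_Ctrl vs 24h_Ctrl 0 members were called by limma (0% of all miRs), 3 had an unadjusted p below 0.05 (4.35%) and 6 did not overlap (10.2%). For 24h_Ctrl vs 6h_Ctrl the counts were 0 (0%), 3 (5.15%) and 5 (8.58%), and for 24h_Giv_Ctrl vs 6h_Giv_Ctrl 0 (0%), 3 (3.96%) and 4 (5.8%). For 24h_Giv_Cyt vs 6h_Giv_Cyt they were 0 (0.396%), 3 (8.84%) and 16 (14.1%). miR-494-3p had the largest difference in 3 of these 4 comparisons, 0.24 (adjusted p = 0.828) in 24h_Ctrl vs 6h_Ctrl, -0.22 (adjusted p = 0.991) in 24h_Giv_Ctrl vs 24h_Ctrl and -0.26 (adjusted p = 0.545) in 24h_Giv_Cyt vs 6h_Giv_Cyt. These comparisons share groups with each other and are not independent.

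**Figure D4:**
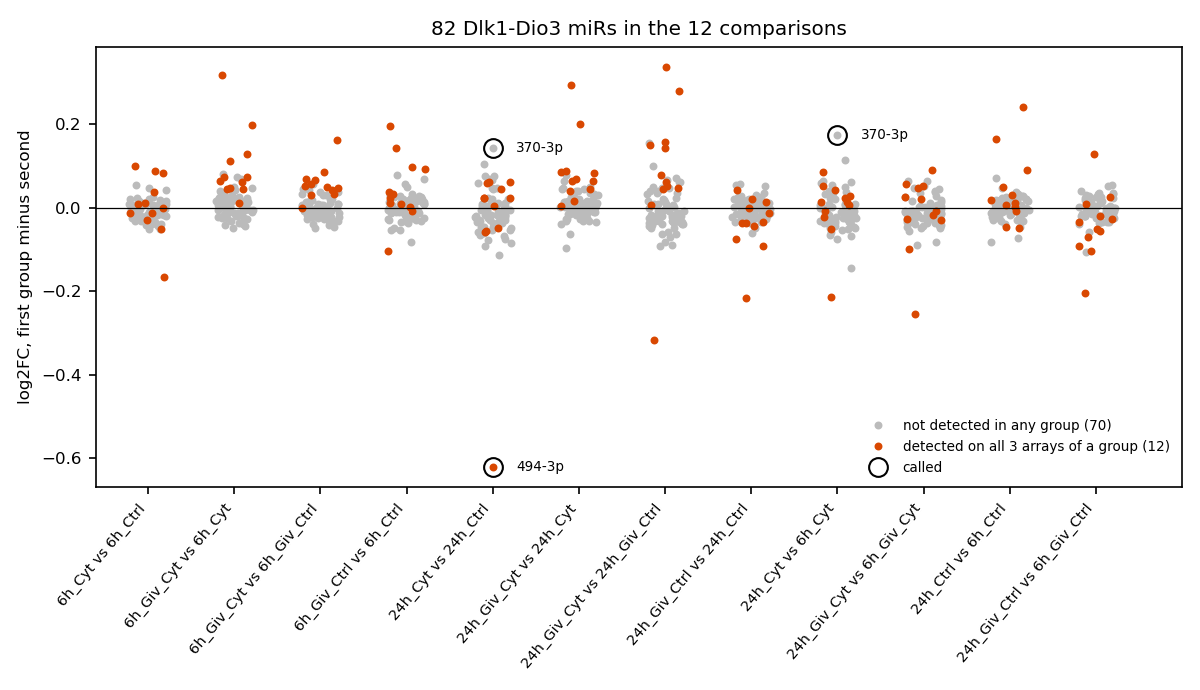
Log2FC (y axis, first group minus second) of the 82 members in each of the 12 comparisons (x axis); orange points are the 12 members detected in at least 1 group, grey points the other 70, and circles the calls. Apart from miR-494-3p at -0.62 in 24h_Cyt vs 24h_Ctrl, the points lie between -0.32 and 0.34.

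The detected members varied together between arrays of the same treatment. In each of the 8 groups 1 array had the highest signal for 8 to 12 of the 12 detected members. The count was 12 on 6h_Giv_Cyt replicate 3 and 11 on 24h_Giv_Cyt replicate 1, 6h_Ctrl replicate 1 and 6h_Cyt replicate 2. On 6h_Giv_Ctrl replicate 1, one of the arrays that stood apart, 11 of the 12 members were the lowest of the group. There miR-485-3p measured 7.18 against 8.65 and 8.49 on the other arrays, and miR-667-3p 6.62 against 7.60 and 7.47.

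As a set the 156 detected miRs outside the locus did not follow. On those 8 arrays 27.6% to 39.1% of the 156 were highest in the group, as the members were, and 35.3% to 62.8% were lowest. With 3 arrays per group some miRs are highest on any array. These shares thus cannot show whether a part of the 156 varied with the members, or whether varying together was particular to the locus. The median deviation from the group mean was 0.06 to 0.15 for the detected members, -0.11 to -0.02 for the other detected miRs and -0.01 to 0.01 for the 70 members not detected in a group, all on the log2 scale. Of the 8 arrays 3 were the dimmest of their group, 3 were in between and 2 were the brightest. miR-494-3p was apart from the other detected members: of the 8 arrays it was highest on 4 and lowest on 4, and on 6h_Giv_Ctrl replicate 1 it was the highest of its group at 7.40. The 8 arrays were picked for the members' values, so these counts are a description and no test was made.

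**Figure D5:**
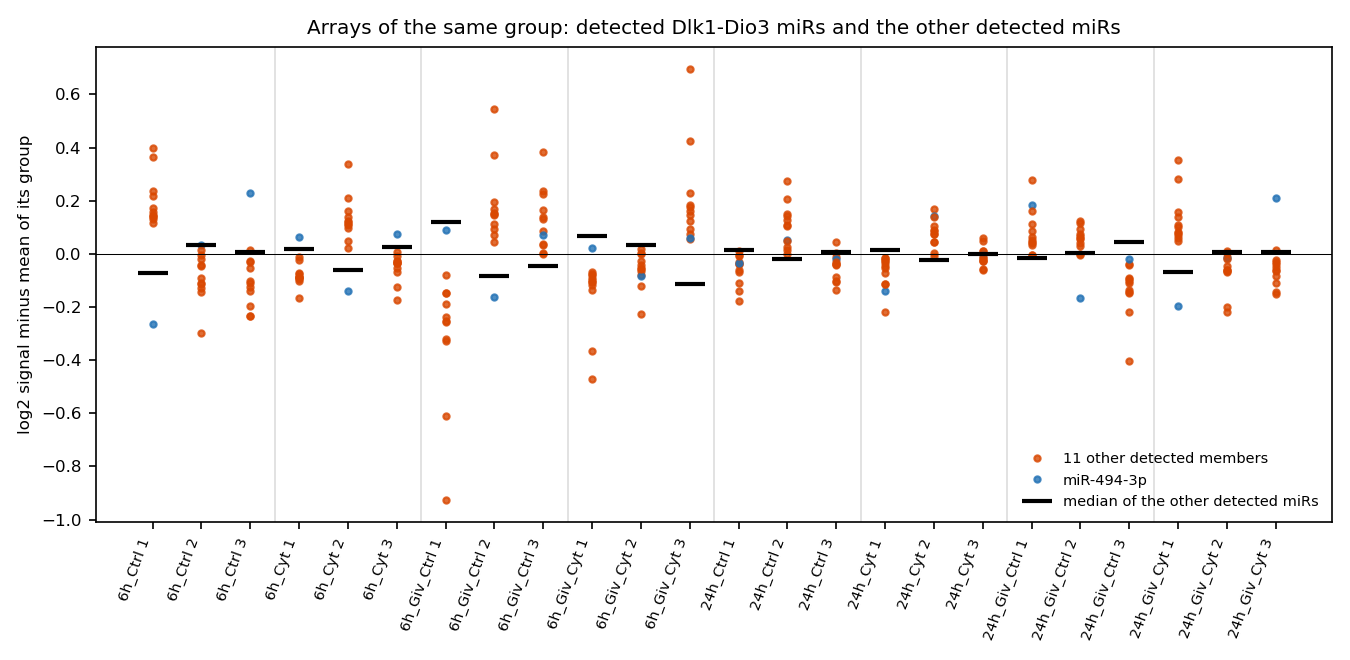
Log2 signal minus the mean of the group (y axis) for each of the 24 arrays (x axis, group and replicate); orange points are 11 detected members, blue points miR-494-3p, and black bars the median of the 156 other detected miRs. The orange points move as a set within groups, up on 6h_Giv_Cyt 3 and down on 6h_Giv_Ctrl 1, while the black bars go the opposite way on these arrays. The bars hide a split: of the 156 miRs 34.0% were highest and 62.8% lowest on 6h_Giv_Cyt 3. On 6h_Giv_Ctrl 1 35.3% were lowest and 62.2% highest.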

How the data were processed

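The authors deposited 1 scanner file per array (Agilent Feature Extraction 10.7.3.1 per the file headers, 9.1 in the submitters' processing notes), with each spot's intensity on a linear scale, not normalized between arrays, probes placed on rn4, and a table of log2 values per miR, which the authors made from quantile-normalized spots. Total counts do not apply to arrays; the 3 arrays per group limit the precision. Each spot's median intensity was used as scanned, with no background subtracted; 434 negative and 281 positive control spots were dropped. Arrays were quantile-normalized, log2 was taken and the 16 spots of each miR were averaged. limma 3.58.1 in R 4.3.3 was fitted to all 24 arrays with 8 group means, for 12 comparisons and 3 terms, and was tested on simulated data. The threshold of 0.1375 is log2 of 1.1. Figures were drawn with matplotlib in Python.

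The members, position lists, marker lists and tests were chosen with earlier results of these data known. Named members are those called, those detected in a group, the largest log2FC per comparison and 14 guide arms. Chosen after seeing values were miR-154-5p, miR-323-5p, miR-369-5p, miR-362-3p and the members in the seed and hairpin comparisons. Alternatives were the pooled correlation test, median over spots, normexp with an offset of 50, no normalization, scaling of processed signals by the 75th percentile over detected or all miRs, the deposited log2 values, detected miRs alone, slide as a block, slide 1 left out, the replicate number as a block, compared groups alone, no fold threshold and each array left out. Array brightness as a covariate, and leaving out both arrays that stand apart, were added after seeing the data. The qRT-PCR and other experiments of the study were not analysed here.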

Additional observations from a re-analysis of the deposited data

How the results depend on the processing

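The number of members called in 24h_Cyt vs 24h_Ctrl was 1 with the pooled correlation test, normexp, the processed signal scaled to all miRs, or detected miRs alone, 0 with slide as a fixed block, without slide 1 or with array brightness as a covariate, 3 with the signal scaled to detected miRs, 1 higher and 2 lower, 5 without a fold threshold and 11 without normalization, all 11 higher. In 24h_Giv_Cyt vs 24h_Giv_Ctrl it was 6 with the pooled test, 31 without normalization, all higher, 1 and 2 with the processed signal scaled to detected and to all miRs, and 1 without a fold threshold. In 24h_Cyt vs 6h_Cyt the number of members was 2 with the pooled test, without normalization, with the signal scaled to detected miRs or with the compared groups alone, and 0 with normexp or detected miRs alone. Of all miRs 122 were called there without normalization, 9 with scaling to detected miRs and 4 with normexp. In 24h_Giv_Cyt vs 24h_Cyt the number of members was 2 with the pooled test and 1 with either scaling, and in 6h_Giv_Cyt vs 6h_Cyt 2 with the pooled test. With scaling to detected and to all miRs, 4 and 2 of all miRs were called in 24h_Giv_Cyt vs 24h_Cyt. With scaling to detected miRs 1 member was called in 24h_Giv_Ctrl vs 24h_Ctrl (23 of all miRs), and with scaling to all miRs 1 in 24h_Giv_Ctrl vs 6h_Giv_Ctrl (3 of all miRs). With either scaling 1 was called in the term for 24 h minus 6 h and 1 in the term for Givinostat at 24 h. With scaling to detected and to all miRs, these terms called 8 and 3, and 3 and 1, of all miRs. For the other settings no share of all miRs is given, so their counts cannot be read as a result about the locus. Without normalization the median of detected miRs shifted by 0.70 after cytokines at 24 h and by 0.43 after cytokines with Givinostat at 24 h. These brighter groups had a part in which miRs counted as detected. The cause of the other changes was not tested.

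Directions turned for miR-494-3p without normalization, to 0.14 for 24h_Cyt against 24h_Ctrl, 0.35 against 6h_Cyt, 0.11 for 24h_Giv_Cyt against 24h_Giv_Ctrl, 0.13 against 6h_Giv_Cyt and 0.18 in the term for 24 h minus 6 h, and with brightness as a covariate to 0.0055 in 24h_Cyt vs 6h_Cyt. They turned for miR-485-3p to -0.049 in 24h_Giv_Cyt vs 24h_Giv_Ctrl with scaling to all miRs, to -0.063 in 24h_Giv_Cyt vs 24h_Cyt and -0.17 in the Givinostat term at 24 h without normalization, to -0.12 and -0.26 in these with brightness as a covariate, and to -0.031 in 6h_Giv_Cyt vs 6h_Cyt without both arrays that stand apart or without 6h_Giv_Cyt replicate 3 alone. Leaving out each array gave 1 to 2 members in 24h_Cyt vs 24h_Ctrl, 1 without 24h_Ctrl replicate 1 or 24h_Cyt replicate 1, and 1 to 2 in 24h_Cyt vs 6h_Cyt, 2 without 6h_Ctrl replicate 1 or 6h_Cyt replicate 2, and 0 in the other comparisons. miR-485-3p in 6h_Giv_Cyt vs 6h_Cyt then ran from -0.031 to 0.55. Other detection rules gave 10 to 17 detected members.

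No pairing by replicate number was apparent, though this was not tested. Deviations of arrays with the same number correlated from -0.93 to 0.96 (median 0.10), and with different numbers from -0.97 to 0.95 (median -0.03). Of the 24 arrays 8 correlated best with an array of their own number. With the replicate block the counts stayed at 2 members in 24h_Cyt vs 24h_Ctrl and 1 in 24h_Cyt vs 6h_Cyt, and miR-494-3p had an adjusted p of 0.00536.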

Other observations

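Inside the rn4 interval of the members, 6 further miRs that the choice of names did not include had probes: miR-544-3p, miR-544-5p, miR-666-3p, miR-666-5p, miR-673-3p and miR-673-5p. Of these, 0 were well above background on any of the 24 arrays. Of the 5 members above background on some arrays but on all 3 of no group, miR-379-3p was so on 4 arrays, miR-540-5p on 3, miR-434-3p on 2, and miR-496-5p and miR-668 on 1 each. The array of miR-496-5p was a 24h_Cyt array and that of miR-668 a 24h_Giv_Cyt array.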
